A study of Mus musculus with 148 samples.

Results

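DNA modification was compared in segment 8 of the small intestine, the medial ileum, between mice that drank lactose-containing milk (LAC+) and mice that drank lactose-free milk (lac-). The members are the P90 samples whose labels name segment 8 and a milk type, 7 LAC+ and 7 lac-, 14 of the 148 samples of the series. Both groups were adult C57BL/6 mice (the labels write the substrain as C57BL/6NCrl and C57BL/6MCrl) that received milk in place of water from postnatal day 30 for 60 days. Sucrose was added to the lactose-containing milk so that mice would drink as much of it, and the milks came from different makers, so lactose, sucrose and brand cannot be told apart here. Enterocytes were taken from the villi, their DNA was treated with bisulfite and captured with padlock probes, and each cytosine was read as modified or unmodified. The files hold DNA modification only, so the labelled cell type was not checked against expressed markers.

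Lactase, the product of *Lct*, splits lactose at the brush border of enterocytes and is high in the infant intestine before weaning. *Lct* lies beside *Mcm6*, a gene for a subunit of the replicative helicase, and introns of *Mcm6* hold sequence known to act as an enhancer of lactase in humans. Bisulfite turns unmodified cytosine into a base read as T while methylcytosine and hydroxymethylcytosine are read as C, so percent modification covers both marks. The other autosomal targets are mostly imprinted genes, at which 1 parental allele is methylated and the other is not. The comparison asks whether lactose in the diet after weaning moves modification at *Lct* and *Mcm6*, and the imprinted targets show what the same samples do elsewhere.

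The layout of the libraries followed the diets closely. By the lane numbers in the file names all 7 LAC+ samples were on lane 1, 6 of them from files marked as merged and 1, replicate 1, from an unmerged file. Of the 7 lac- samples 1, replicate 6, came from a merged file on lane 1, and the other 6 came from unmerged files, 4 on lane 6 and 2 on lane 7. Diet, lane and kind of file therefore can hardly be told apart in segment 8, and differences below are set beside their values within merged and within unmerged files. Total calls ranged from 49606027 to 96268094 in LAC+ and from 38564889 to 171487788 in lac- samples, with medians of 88562583 and 48151330. Each sample lists 3762 CpGs by strand, 1102 of them at the locus, and the median CpG of the locus had 1540 to 3248.5 reads in LAC+ and 1078 to 5953 in lac- samples. Modification outside CpGs at the locus, a measure that includes incomplete conversion, was 0.737% ± 0.022 in LAC+ and 0.759% ± 0.045 in lac- samples (SD, n = 7 each). In the other targets it varied more, with 1.17% ± 0.39 in LAC+ and 1.22% ± 0.70 in lac- samples. Single samples ranged there from 0.72 to 1.59% in LAC+ and from 0.47 to 2.17% in lac-.

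The reference sequences of the CpGs on which the results turn are shown here, from GRCm38 and 5′ to 3′ on the strand given. In the first 5, capitals mark the CpGs that differed between diets at an adjusted p under 0.05 on that strand. In the last, from the exon of *Lct* with the clearest division by kind of file, they mark the CpGs averaged, of which none passed.
Mcm6 intron 9, chr1:128343920-128343976, plus strand: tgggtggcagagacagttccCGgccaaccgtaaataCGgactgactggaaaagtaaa
Mcm6 intron 1, chr1:128358463-128358538, plus strand: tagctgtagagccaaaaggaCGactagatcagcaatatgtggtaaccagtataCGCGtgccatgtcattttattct
Kcnq1ot1 target, chr7:143295322-143295490, minus strand: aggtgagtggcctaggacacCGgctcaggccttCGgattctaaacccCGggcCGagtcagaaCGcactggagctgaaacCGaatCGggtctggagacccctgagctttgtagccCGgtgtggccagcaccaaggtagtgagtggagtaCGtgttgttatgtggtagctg
Blcap target, chr2:157559663-157559814, plus strand: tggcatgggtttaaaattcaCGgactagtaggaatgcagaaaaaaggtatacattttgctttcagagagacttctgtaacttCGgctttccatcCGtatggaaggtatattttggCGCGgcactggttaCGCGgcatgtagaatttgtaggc
Peg13 target, chr15:72802270-72802354, plus strand: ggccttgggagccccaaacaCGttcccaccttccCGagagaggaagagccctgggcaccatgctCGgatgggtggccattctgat
Lct exon 12, chr1:128293663-128293753, minus strand: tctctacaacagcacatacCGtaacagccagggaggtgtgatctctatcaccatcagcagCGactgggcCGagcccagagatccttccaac

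Across all targets no CpG passed the strict threshold, and a looser threshold called CpGs in both directions. A depth above 30 reads was met in 3 or more samples per diet by 1537 CpGs, 375 of these were above 90% modified and left out, and 1162 were tested, 332 at the locus and 830 elsewhere. In the quasi-binomial F test 0 CpGs (0%) had a Bonferroni adjusted p under 0.01 and 20.2% of CpGs had an unadjusted p under 0.05, while limma on log2 odds gave 1 CpG at the same Bonferroni threshold. With Benjamini-Hochberg adjustment 80 CpGs (6.88%) passed 0.05, 45 lower (3.87%) and 35 higher (3.01%) in LAC+. At the locus 18 passed, 7 lower and 11 higher. The median difference between diets over all tested CpGs was -0.07 percentage points and the median absolute difference 1.70 points. The count of 80 rested on single libraries: it rose to 129 without LAC+ replicate 1 and was 0 without lac- replicate 2 or without LAC+ replicate 4, 6 or 7.

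Part of the called CpGs lay close together. Joined where they lay on 1 strand with at most 150 bp to the next, the 80 CpGs formed 41 blocks, 24 of which held 1 CpG. The 10 blocks with 3 or more held 42 CpGs, and within each of the 10 all differences had 1 sign. CpGs this close can be read by the same fragments and are not independent. Of the positions tested on both strands the difference had the same sign at 79 of 114 at the locus and at 37 of 71 elsewhere, with Pearson correlations between strands of 0.60 and 0.42 across positions that share their samples.

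Regional means were taken over CpGs with more than 30 reads in all 14 samples. Of 68 regions, 35 exons, introns and flanks of *Lct* and *Mcm6*, 13 clusters of CpGs that differ along the intestine in P60 mice and 20 other targets, 6 (8.82%) passed an adjusted p of 0.05, each at 0.040 by exact permutation of the samples. 4 were lower and 2 higher in LAC+. They were *Mcm6* intron 1, *Mcm6* intron 9 and *Lct* exon 1 at the locus, and the targets at *Mcts2*, *Kcnq1ot1* and *Blcap*. In 0 of the 68 (0%) did the samples of the diets not overlap. The 68 are not separate: clusters share CpGs with exons and introns, and those at *Lct* exon 7 and *Mcm6* exon 10 hold the same CpGs as the exon. All 6 calls moved above 0.05 without any 1 of 11 of the samples, 1 region was called without LAC+ replicate 3, and 14 and 15 regions were called without lac- replicate 6 and without LAC+ replicate 1, the 2 samples whose kind of file was not that of their group.

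**Figure D1:**
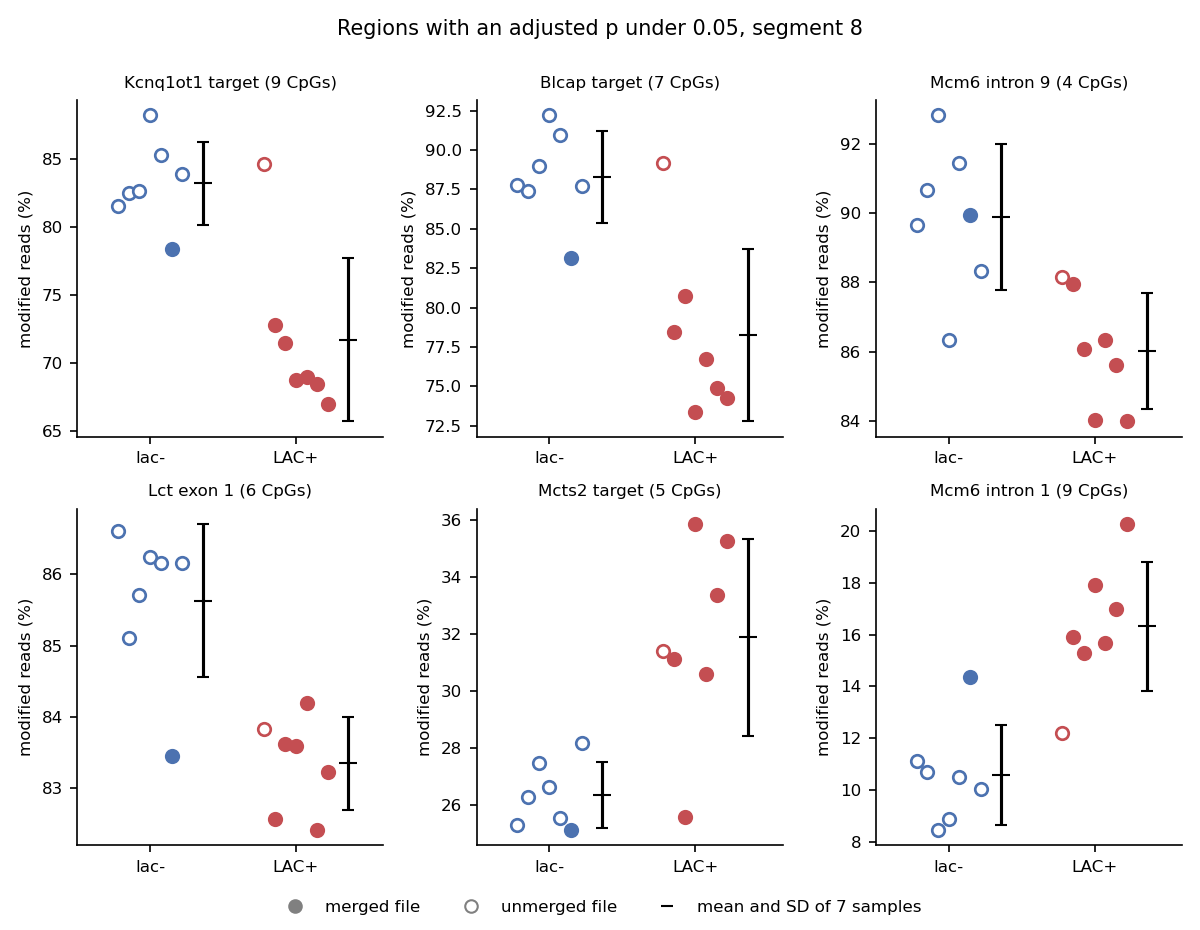
Percent modification in each of the 14 samples for the 6 regions with an adjusted p under 0.05. Points are samples, filled for merged and open for unmerged files, and bars give the mean and SD of 7 samples on axes that do not start at 0. In *Kcnq1ot1* and *Blcap* the open LAC+ point sits among the open lac- points.

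*Mcm6* intron 1, which served the study as a control region for the gradient along the intestine, was higher in LAC+. The mean of its 9 CpGs was 11.1, 10.7, 8.47, 8.90, 10.5, 14.4 and 10.0% in lac- replicates 1 to 7 and 12.2, 15.9, 15.3, 17.9, 15.7, 16.999 and 20.3% in LAC+ replicates 1 to 7. The highest lac- sample was the merged one and the lowest LAC+ sample the unmerged one, and without either of these the groups would not overlap. The means were 10.6% ± 1.93 and 16.3% ± 2.49 (SD, n = 7 each), a difference of 5.73 points (exact permutation p = 0.00117). Within merged files the difference was 2.64 points and within unmerged files 2.23 points, and merged exceeded unmerged files by 4.42 points among lac- and 4.82 points among LAC+ samples. Of the 9 CpGs 6 were called, 3 on each strand of the sequence printed above, all higher in LAC+. In P60 mice, given no milk, segment 8 had a mean of 9.57% ± 1.14 (SD, n = 8).

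*Mcm6* intron 9 was lower in LAC+. The 2 CpGs printed in capitals, at positions 128343940 and 128343956 of the plus strand, were among the 6 CpGs (0.61% of 983 covered in all samples) at which no LAC+ sample overlapped a lac- sample. At 128343956 the lac- samples lay between 89.8 and 94.4% and the LAC+ samples between 81.5 and 88.3%, a difference of -7.52 points with a Benjamini-Hochberg adjusted p of 0.024. At 128343940 the difference was -7.91 points. Within merged files these differences were -5.35 and -6.11 points and within unmerged files -5.34 and -3.53 points. Over the 4 CpGs of the intron the means were 89.9% ± 2.10 in lac- and 86.02% ± 1.67 in LAC+ samples (SD, n = 7 each), with 1 of the 4 higher in LAC+, and the difference was -4.27 points within merged and -1.71 points within unmerged files. P60 mice had 92.9% ± 0.88 (SD, n = 8) in segment 8, above both diets.

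At *Lct* exon 1, the exon at the start of the gene, the lac- samples had 86.6, 85.1, 85.7, 86.2, 86.2, 83.5 and 86.1%, and the LAC+ samples 83.8, 82.6, 83.6, 83.6, 84.2, 82.4 and 83.2%, each in the order of replicates 1 to 7. The merged lac- sample, replicate 6, stood among the LAC+ samples, and the unmerged LAC+ sample stayed with its diet. The difference over 6 CpGs was -2.28 points (exact permutation p = 0.00291), all 6 CpGs were lower in LAC+, and 1 of them, at 128327686 on the minus strand, was called at -5.65 points (-4.90 points within merged and 1.13 points within unmerged files). Within merged files the difference was -0.18 points and within unmerged files -2.17 points.

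Exon 12, intron 8 and intron 2 of *Lct* did not pass over the 68 regions. The study examined these sites by diet in these samples and reported significant decreases with lactose in distal segments. Its text does not list the CpGs behind each decrease. The regional means here take all covered CpGs of an exon or intron, in intron 2 13 CpGs over 5656 bp. They were lower in LAC+ at exon 12 and intron 8 and higher at intron 2. The decreases the study gives for this segment match, in rounded size, the differences at single CpGs of the same sites. These CpGs, at 128293733 in exon 12, 128298853 in intron 8 and 128314931 in intron 2, differed by -4.70, -3.61 and -6.37 points. Whether the study's values rest on these CpGs was not tested. At exon 12 the lac- samples had 88.4, 86.3, 88.1, 88.4, 86.2, 82.1 and 86.2% and the LAC+ samples 87.4, 81.96, 81.5, 81.4, 83.1, 81.9 and 81.8%, in the order of replicates. The samples divided by kind of file without overlap: merged lac- replicate 6 lay inside the range of the merged LAC+ samples, and unmerged LAC+ replicate 1 inside that of the unmerged lac- samples. The difference between diets was -3.81 points over 3 CpGs (exact permutation p = 0.0146, adjusted p = 0.088), and it was -0.155 points within merged and 0.146 points within unmerged files. Without lac- replicate 6 or LAC+ replicate 1 the adjusted p for this region was 0.040 and 0.013. The CpG of lowest p in the exon, at 128293733, differed by -4.70 points (adjusted p = 0.077), -1.57 points within merged and -1.44 points within unmerged files.

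In *Lct* intron 8 the mean of 3 CpGs was 78.03% ± 0.94 in lac- and 77.3% ± 0.44 in LAC+ samples (SD, n = 7 each), a difference of -0.68 points (exact permutation p = 0.106). The call depended on the mean taken: with pooled reads the difference was -1.32 points with an adjusted p of 0.034, and with strands averaged first it was 0.39 points. A CpG of the intron, at 128298853 of the plus strand, was called at -3.61 points, and the opposite strand of the same CpG had -2.04 points. Within merged files that CpG differed by -2.51 points and within unmerged files by -0.24 points. In *Lct* intron 2 the 13 CpGs had means of 41.1% ± 3.18 and 43.5% ± 4.16 in lac- and LAC+ samples, a difference of 2.42 points (exact permutation p = 0.241) that was 2.96 points within merged and -5.51 points within unmerged files. Of these 13 CpGs 5 were lower and 8 higher in LAC+, and 0 were called by the quasi-binomial F test. The CpG of lowest p, at 128314756 of the minus strand, had a difference of 6.74 points (adjusted p = 0.122), at 100 reads in the shallowest sample, and it was 4.97 points within merged and -2.15 points within unmerged files. The CpG with the most negative difference, at 128314931 of the minus strand and chosen after its values were seen, had 25.1% ± 6.26 in lac- and 18.8% ± 1.85 in LAC+ samples, a difference of -6.37 points (adjusted p = 0.316). It was -2.25 points within merged and -7.65 points within unmerged files. Next to it, at 128314856, the difference was -6.25 points (adjusted p = 0.417), -0.84 points within merged and -13.8 points within unmerged files.

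The cluster across *Mcm6* exon 13 and intron 13, where modification differs along the intestine in P60 mice, varied widely within each diet. Its 16 CpGs ranged from 62.2 to 78.97% in lac- and from 62.1 to 78.8% in LAC+ samples, with means of 71.0% ± 5.93 and 71.8% ± 5.98 (SD, n = 7 each). The difference of 0.80 points (exact permutation p = 0.801) was small beside this spread, and it was 9.11 points within merged and -9.99 points within unmerged files, each resting on 1 sample of a diet. P60 mice had a like spread in segment 8, 71.0% ± 6.83 (SD, n = 8).

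**Figure D2:**
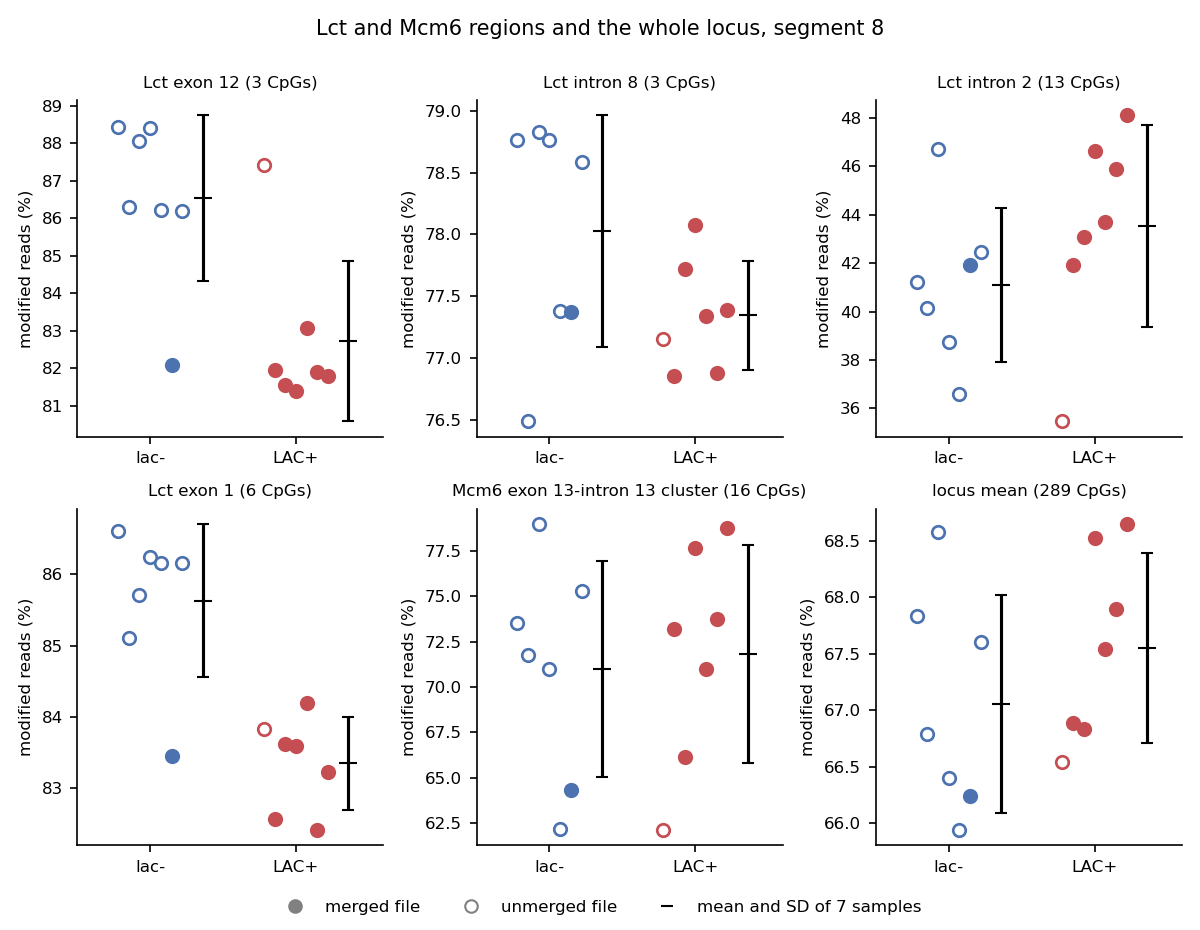
Percent modification per sample in 5 regions of the *Lct*-*Mcm6* locus and over its 289 CpGs covered in all samples. Points are filled for merged and open for unmerged files, bars give the mean and SD of 7 samples, and axes do not start at 0. At *Lct* exon 12 filled and open points separate whatever the diet.

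The CpGs that change along the intestine in P60 mice are set beside the other CpGs of the locus as a description. In the P60 samples 150 of 653 CpGs (23%) differed between the 9 segments after Bonferroni correction, in a test that takes the samples as separate although segments of 1 intestine may be among them, and 114 of these could be tested by diet in segment 8. Of the 114, 49 were lower and 65 higher in LAC+, with a median difference of 0.28 points, 2 (1.75%) were called, and 30 had an unadjusted p under 0.05. Among the remaining CpGs of the 332 the median difference was -0.07 points, 16 (7.34%) were called, and 38 had an unadjusted p under 0.05. The median absolute difference was 1.71 points in the first set and 1.04 points in the second. Over all 289 covered CpGs of the locus the mean was 67.1% ± 0.97 in lac- and 67.6% ± 0.84 in LAC+ samples, a difference of 0.50 points (exact permutation p = 0.310, 7 against 7 samples) that was 1.49 points within merged and -0.65 points within unmerged files. Over the 694 covered CpGs of the other targets the means were 48.9% ± 0.57 and 48.5% ± 1.08. That difference was -0.42 points (exact permutation p = 0.383), -0.33 points within merged and 0.87 points within unmerged files.

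The largest regional differences lay outside the locus, at *Kcnq1ot1*, a long noncoding RNA that silences genes on the paternal chromosome, and *Blcap*, a gene beside the imprinted *Nnat*. At *Kcnq1ot1* all 9 CpGs, on 1 strand of chr7:143295342-143295470 and at 2464 or more reads, were called, by -13.1 to -9.05 points. The lac- samples had 81.6, 82.6, 82.6, 88.2, 85.3, 78.4 and 83.95% and the LAC+ samples 84.6, 72.8, 71.5, 68.8, 69.0, 68.5 and 67.02%, in the order of replicates. LAC+ replicate 1, the unmerged one, was higher than 5 of the 7 lac- samples, and lac- replicate 6, the merged one, was the lowest of its group. The difference was -11.5 points (exact permutation p = 0.0035), -8.82 points within merged and 0.59 points within unmerged files. At *Blcap* all 7 CpGs used, in a stretch that overlaps an annotated exon, were called at -11.1 to -9.37 points. The regional difference was -10.1 points, -6.72 points within merged and -0.0045 points within unmerged files, where LAC+ replicate 1 had 89.2% and the unmerged lac- samples 87.4 to 92.2%.

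*Mcts2*, a retrogene expressed from the paternal allele inside *H13*, was higher in LAC+. The 5 CpGs had 25.1 to 28.2% in the lac- samples and 31.4, 31.1, 25.6, 35.9, 30.6, 33.4 and 35.3% in LAC+ replicates 1 to 7. All LAC+ samples but replicate 3 were above all lac- samples, and the unmerged LAC+ sample stood with its diet. The difference of 5.52 points (exact permutation p = 0.00291) was 6.83 points within merged and 4.83 points within unmerged files. With diets exchanged only within a kind of file the exact permutation p was 0.0204, the smallest this layout can give, and *Mcts2* was the 1 region of 68 under 0.05 in that test, with an adjusted p of 0.925.

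**Figure D3:**
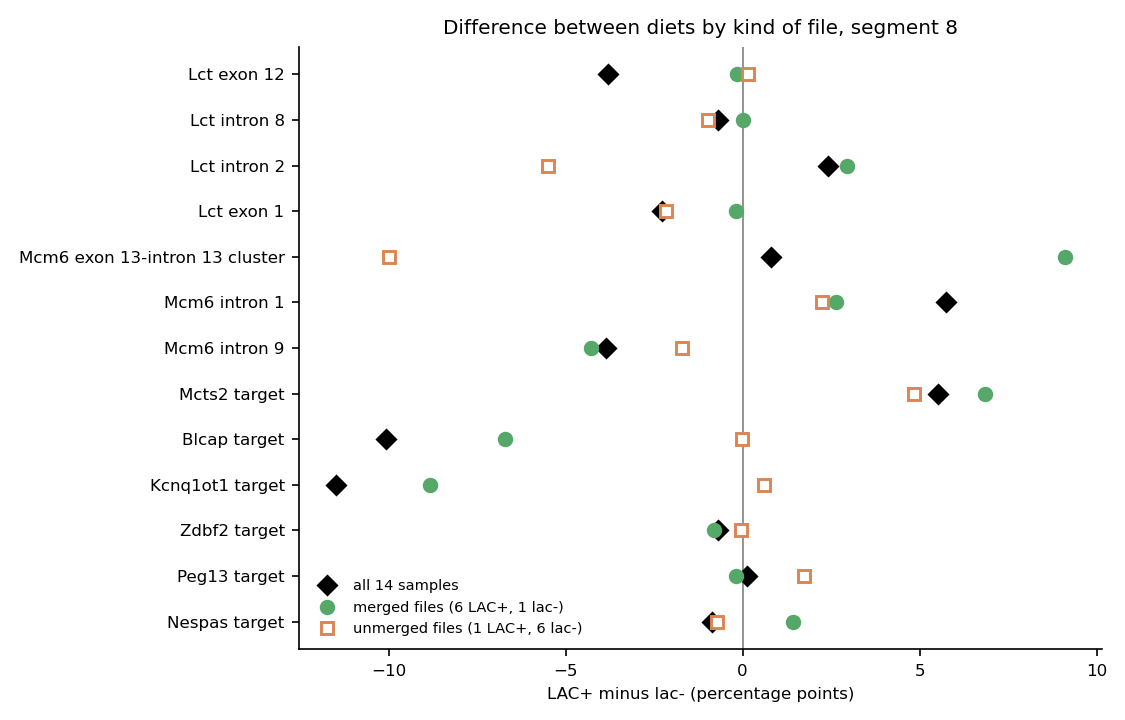
Difference between diets (LAC+ minus lac-, percentage points) for 13 regions over all 14 samples, within merged and within unmerged files. Of the 6 called regions, *Mcts2* and *Mcm6* intron 9 have a larger difference within merged files than over all samples, and at all 6 the difference within unmerged files is smaller than that over all samples.

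At the *Peg13* target calls went both ways. This target, 66 covered CpGs inside *Trappc9*, had means of 58.2% ± 0.61 in lac- and 58.3% ± 1.25 in LAC+ samples (SD, n = 7 each) and a difference of 0.13 points (exact permutation p = 0.817), -0.20 points within merged and 1.74 points within unmerged files. Even so 16 of its 71 tested CpGs were called, the most of any region: 8 between 72801572 and 72804112 were higher in LAC+ by 6.62 to 9.83 points, and 8 between 72807260 and 72808732 were lower. The 3 CpGs printed above averaged 4.82% in lac- and 12.2% in LAC+ samples, and the difference was 4.63 points within merged and 0.114 points within unmerged files. The chromosome 12 target, which the annotation places between *Dlk1* and *Meg3*, had 14 of 56 tested CpGs called, 5 higher and 9 lower, and a mean difference of -2.22 points (exact permutation p = 0.0181, adjusted p = 0.088) that was -0.465 points within merged and -0.058 points within unmerged files. The *Zdbf2* target, with 163 covered CpGs, differed by -0.70 points (exact permutation p = 0.0478, adjusted p = 0.191), -0.82 points within merged and -0.058 points within unmerged files. It held the CpG of lowest p of all, at chr1 position 63255733 on the minus strand, with 37.8% ± 1.63 in lac- and 31.8% ± 2.25 in LAC+ samples (SD, n = 7 each) and a Bonferroni adjusted p of 0.041. That CpG differed by -6.60 points within merged and -2.32 points within unmerged files. The *Nespas* target at *Gnas*, 65 CpGs, differed by -0.87 points (exact permutation p = 0.233), 1.41 points within merged and -0.73 points within unmerged files, and had 0 called CpGs.

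The direction of the calls differed with the level of the CpG, and less so over all tested CpGs. By their mean in P60 segment 8 samples, which take no part in the diet comparison, 19 called CpGs were under 30% modified, 17 of them higher in LAC+, and 40 were over 70%, 37 of them lower. Over all tested CpGs 94 of 168 under 30% were higher and 220 of 351 over 70% were lower, and at the locus 120 over 70% were lower and 104 higher. The 21 called CpGs between these levels were 3.31% of the 634 tested there, against 11.3% and 11.4% of the 168 and 351 tested CpGs under 30% and over 70%. Among tested CpGs over 70% in the other targets the median difference was -3.59 points, against -0.19 points for those at the locus.

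**Figure D4:**
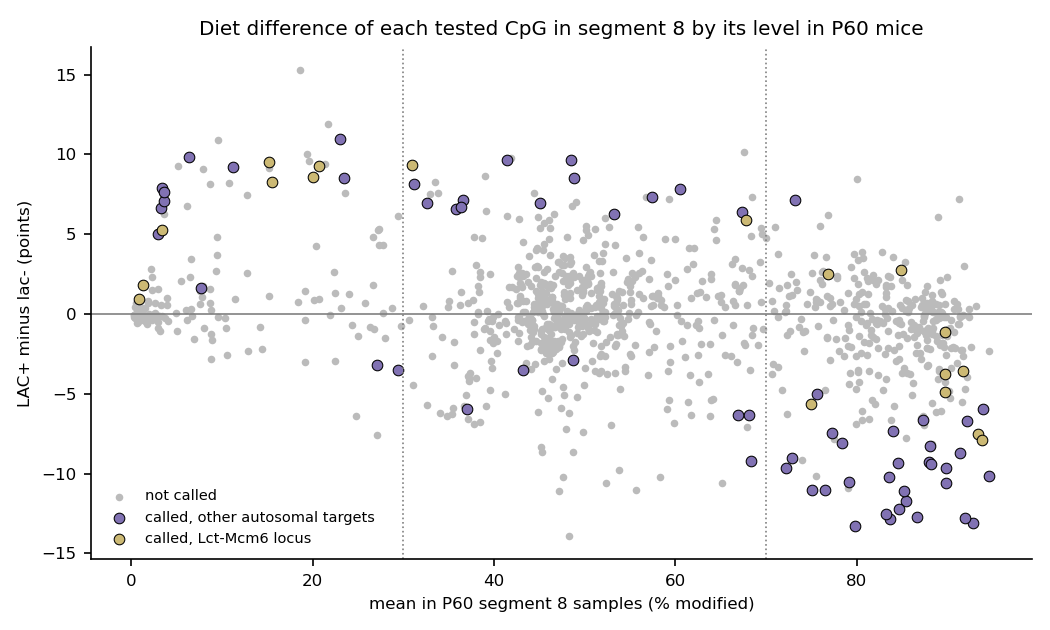
Difference between diets in segment 8 (LAC+ minus lac-, percentage points) of each tested CpG against its mean percent modification in the 8 P60 segment 8 samples. Large points are CpGs with an adjusted p under 0.05, coloured by target, and dotted lines stand at 30 and 70%. Called CpGs at low levels lie mostly above 0 and those at high levels mostly below.

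Within segment 8 the 2 samples that cross the layout showed where the called CpGs stood. At the 78 called CpGs covered in all samples, unmerged LAC+ replicate 1 was nearer to the mean of the unmerged lac- samples than to that of the merged LAC+ samples at 63. Merged lac- replicate 6 was nearer to the merged LAC+ mean at 12. Over all 983 CpGs covered, lac- replicate 6 lay 2.37 points from the merged LAC+ mean and 2.43 points from the unmerged lac- mean. LAC+ replicate 1 lay 3.84 and 2.74 points from them. At the 78 called CpGs the median absolute difference was 7.91 points between diets and 3.68 points when diets were compared within kinds of file. The sign was the same in both kinds at 53. The 78 were called on the same 14 samples, these 2 among them, so their counts and medians follow in part from the choice. Over all 983 CpGs covered the sign was the same in both kinds at 467, and the median absolute difference within kinds was 1.26 points. With kind of file as a term of the model 0 CpGs passed the adjusted p of 0.05. Each comparison within a kind sets 1 sample against 6, for which the smallest exact p is 0.143, so it can give a value but no call.

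Segments 7 and 4 hold other samples of the same diets, although the labels do not say whether they came from the same animals. In segment 7, laid out like segment 8 with 7 LAC+ and 6 lac- samples, the differences resembled those of segment 8: -4.25 points at *Lct* exon 12, 5.17 at *Mcm6* intron 1, -8.55 at *Blcap* and -9.58 at *Kcnq1ot1*, but 1.18 at *Mcts2*. Unlike in segment 8, the segment 7 difference at *Lct* exon 12 was -4.0005 points within merged files, with 1 lac- sample among them. Within unmerged files of segment 7 it was 0.133 points. In segment 4 all 7 LAC+ and 5 of 7 lac- samples were merged, with the same lane number, and 2 lac- samples were unmerged, with another. The 40 blocks called in segment 8 and covered in all its samples had a median of 6.65 points in their own direction. Within merged files the median was 4.94 points, with that direction at all 40, and within unmerged files 0.96 points, with it at 30. The blocks and their direction were chosen on these same samples, so these counts follow in part from the choice. Samples of segments 7 and 4 took no part in it. The 40 are not separate units: the *Peg13* target holds 10 and the chromosome 12 target 7, and some are the 2 strands of the same CpGs. The diets of segment 7 differed in the direction of segment 8 at 38 of the 40, with a median of 4.72 points, and those of segment 4 over all files at 37, with a median of 2.37 points. The diets within merged files of segment 4 differed in the direction of segment 8 at 20, with a median of -0.02 points in that direction. Among lac- samples of segment 4, all of the same diet, merged minus unmerged files had the direction of the segment 8 difference at 39 of the 40, with a median of 9.80 points. Over all tested CpGs above 70% in the other targets, called ones among them, merged minus unmerged files had a median of -9.11 points. Of the 31 called there 30 were lower in LAC+. At the locus the median above 70% was 0.35 points. Under 30% it was 0.89 points in the other targets and 0.30 points at the locus. The counts of blocks were not compared with other CpGs of like level. At *Kcnq1ot1* and *Blcap* this difference between files of 1 diet was -20.2 and -14.8 points, and at *Mcm6* intron 1 it was 9.65 points. Within merged files of segment 4 (7 LAC+, 5 lac-) the diets differed at these regions by 1.27, -1.24 and 2.68 points. At *Mcts2*, *Lct* exon 1 and *Lct* exon 12 the diets differed within merged files by 3.71, -0.30 and -1.30 points. Merged minus unmerged lac- files gave 0.71, -0.06 and -2.49 points there. The mean of the other targets differed between diets by 0.78 points within merged files of segment 4 (unadjusted exact permutation p = 0.00758). Kind of file and lane cannot be told apart in segment 4 either. Of 28 tests of the difference between segments (14 values against segment 7 and 14 against segment 4, permuting diets within segments) 0 passed after Benjamini-Hochberg adjustment and 2 had an unadjusted permutation p under 0.05, the lowest being *Nespas* against segment 4 (permutation p = 0.00868, adjusted p = 0.243).

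**Figure D5:**
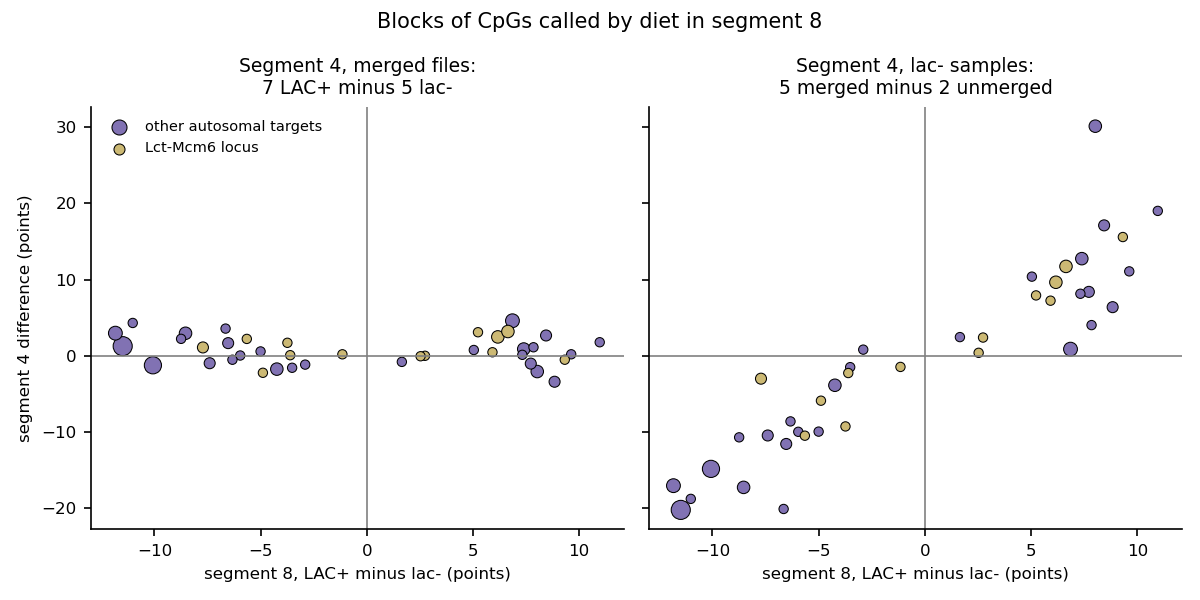
Each point is a block of CpGs called in segment 8, with its size showing the number of called CpGs and its horizontal position the difference between diets in segment 8 (percentage points). The vertical axis gives segment 4 values, on the left between diets within merged files and on the right between merged and unmerged lac- samples. The left values scatter around 0 (20 of 40 in the direction of segment 8) and the right values follow segment 8 (39 of 40).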

How the data were processed

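The authors trimmed reads with Trimmomatic 0.32 and mapped them with Bismark to GRCm38, per the labels, and deposited for each cytosine and strand the counts of modified and unmodified reads, not normalized. How reads with the same degenerate tag were treated is not given in the sources used here, so counts are reads and may repeat molecules. The counts were used as deposited. Percent modification is modified reads over all reads at a cytosine. The first data line of each file stands as its header and was not used.

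Groups came from the labels. Lane numbers and kind of file came from the file names, and what merging joined is not given in the sources used here. Whether a lane number covers all reads of a merged file is therefore not known. CpGs were kept if covered by over 30 reads in 3 or more samples per diet, with a mean of at most 90%, and a quasi-binomial F test with 1 dispersion per CpG was run on their read numbers. Bonferroni (0.01) and Benjamini-Hochberg (0.05) adjustment ran over all 1162 CpGs. Regional means, over at least 3 CpGs, were compared by exact two-sided permutation of 7 against 7 samples (smallest p 0.000583) and adjusted over 68 regions. Regions were the exons and introns of Lct and Mcm6 in GENCODE vM21, their flanks, other targets joined within 10000 bp, and P60 clusters of 3 or more CpGs within 500 bp. The merged and unmerged differences carried equal weight in the combined value, with diets permuted within each kind. Differences between segments were tested by permuting diets within segments (100000 resamples, seed 1). P-values measure the spread between these samples, and the labels do not name the animals.

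CpGs were named by lowest p, 12 over all targets and 1 in each of 5 regions of the locus. Regions were those 5, the 5 others of lowest p and the 3 other targets with most CpGs. CpGs of other blocks, further CpGs of Lct intron 2, the chromosome 12 target and the level split were chosen after their values were seen. Members and lists were chosen with earlier results of these data known. The scripts were tested on simulated counts. Replicate numbers did not pair the samples: the correlation of deviations between same-numbered samples was -0.298 to 0.107 (mean -0.053), against 0.0097 for different numbers. No pair of samples agreed within sampling noise. Alternatives were coverage over 10 and 100 reads, CpGs above 90% kept, a replicate block, kind of file as a term, merged files, unmerged files or lane 1 alone, the locus alone for adjustment, pooled reads, averaged strands, limma and each sample left out. Software was R 4.3.3 with limma 3.58.1 (log2 odds, pseudocount 0.5), SciPy 1.17.1, Matplotlib 3.10.9, NumPy 2.4.6, pandas 2.3.3 and Python 3.11.15. Block, level and several Benjamini-Hochberg alternatives were chosen after seeing the data. Reference sequence is from RefSeq GRCm38.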

Additional observations from a re-analysis of the deposited data

Results flagged for a closer look

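In groups of 7 samples a value was singled out where its gap to the nearest other sample was large against the range of its group (Dixon's test at the 95% level). Chance alone singles out about 1 in 20 groups, and 11 of 63 were. At *Lct* exon 12 both samples whose kind of file was not that of their group stood apart, lac- replicate 6 at 82.1% and LAC+ replicate 1 at 87.4%. LAC+ replicate 1 also stood above its group at the *Kcnq1ot1* target, with 84.6% over the 9 CpGs, and at 7 of these CpGs, which share reads, with 91.8, 74.4, 81.6, 92.1, 86.7, 87.8 and 85.8% from position 143295342 to 143295470. At the *Peg13* target lac- replicate 7 was high at 59.4%. The part of kind of file, lane and depth in these values was not tested.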

How the results depend on the processing

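With Benjamini-Hochberg adjustment in place of Bonferroni 80 CpGs were called, and with that adjustment over the locus alone 15. With limma 1 CpG was called at the Bonferroni threshold and 90 with Benjamini-Hochberg adjustment, 67 of them among the 80. With kind of file as a term, merged files only, unmerged files only or lane 1 only, 0 CpGs and 0 regions were called in each. Merged and unmerged files alone and lane 1 alone set 1 sample against 6 or 7, too few for a regional call. With kind of file as a term the smallest exact permutation p of a region is 0.0204. A few regions at that value could not pass adjustment over 68, so the 0 regions there says little. Keeping CpGs above 90% gave 0 called regions of 89.

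A replicate block gave 0 CpGs and 0 regions, with a difference of -2.28 points and an adjusted p of 0.133 at *Lct* exon 1. The numbers did not pair the samples, 1 of 7 lac- samples correlated best with its own number, and the smallest p that block allows was 0.0156.

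Other values are in percentage points. With kind of file as a term *Lct* intron 2 had -1.28, *Lct* exon 1 -1.17, the *Mcm6* exon 13-intron 13 cluster -0.44, *Nespas* 0.339 and the mean of the other targets 0.272. In merged files only *Lct* intron 8 had 0.000867, *Lct* exon 1 -0.179 and *Peg13* -0.288. In unmerged files only *Lct* intron 2 had -6.16, *Lct* exon 1 -2.17, the *Mcm6* cluster -9.99, *Blcap* 0.423, *Kcnq1ot1* 0.497, the locus mean -0.754 and the other targets 0.902. On lane 1 only *Lct* exon 12 had 0.380, *Lct* exon 1 -0.0995, *Peg13* -0.0940 and *Nespas* 0.0718. CpGs were chosen anew in each subset, so these differ slightly from the values within kinds of file. Keeping CpGs above 90% gave -1.72 at *Lct* exon 1 and -0.0825 at *Peg13*, and over 100 reads *Nespas* had 0.0474. Pooled reads gave -1.32 at *Lct* intron 8 and 0.0845 over the other targets, and averaged strands 0.386 at *Lct* intron 8 and -0.174 at *Peg13*. The cause was not tested.

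For the difference between segments, merged files only turned the sign against segment 7 at the *Mcm6* cluster (-4.25), *Mcm6* intron 1 (-1.002), *Blcap* (1.11), *Zdbf2* (-0.0898), *Nespas* (0.720) and the locus mean (-0.00174). Against segment 4 they turned it at *Lct* exon 12 (0.691), intron 8 (0.0200), intron 2 (0.712) and exon 1 (0.117), the *Mcm6* cluster (8.70), *Mcm6* intron 1 (-0.0476) and the locus mean (1.35).

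With each sample left out in turn, the Bonferroni count was 0 to 2, the Benjamini-Hochberg count 0 to 129 and the called regions 0 to 15. *Lct* exon 1 ranged from -2.64 to -2.12, exon 12 from -4.59 to -3.49, intron 2 from 1.67 to 3.77, intron 8 from -0.940 to -0.549 and the *Mcm6* cluster from -0.665 to 2.42. *Peg13* ranged from -0.142 to 0.457, *Mcm6* intron 1 from 5.08 to 6.42, *Mcm6* intron 9 from -4.45 to -3.37, *Mcts2* from 4.85 to 6.57, *Kcnq1ot1* from -13.6 to -10.7 and *Blcap* from -11.9 to -8.71.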

Other observations

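At several called CpGs of the locus and of other targets the difference had 1 sign in both kinds of file. Downstream of *Lct*, at 128276635 of the plus strand, modification was 88.0% in lac- and 83.1% in LAC+ samples, a difference of -4.89 points that was -4.96 points within merged and -5.18 points within unmerged files. In *Lct* exon 13 a CpG differed by 2.74 points (2.78 within merged, 1.79 within unmerged files), in exon 11 by 2.53 points (2.40 and 4.21) and in *Mcm6* exon 2 by 5.92 points (3.87 and 0.66). Upstream of *Mcm6* 2 of 37 CpGs were called, at separate sites. At 128360416 of the plus strand the difference was 5.24 points (3.09 and 0.65), and at 128364248 of the minus strand -3.74 points (-2.38 and -0.40). At *Snrpn*, an imprinted gene of the Prader-Willi region, 2 of 35 tested CpGs were called, with a mean of 45.9% in lac- and 53.6% in LAC+ samples, and their difference was 4.91 points within merged and 7.11 points within unmerged files. At *Grb10*, an imprinted adaptor of insulin signalling, 1 CpG differed by 10.97 points (5.79 and 7.67), and at *H19*, a maternally expressed long noncoding RNA, 1 differed by 1.65 points (2.08 and 2.76).

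At other called CpGs of the locus the sign turned within unmerged files. In *Lct* intron 12 a CpG at 128292085 of the plus strand had 35.2% in lac- and 44.5% in LAC+ samples, with a difference of 8.12 points within merged and -2.91 points within unmerged files. In *Lct* exon 8 a CpG at 128301213 differed by -1.15 points, -1.37 points within merged and 0.38 points within unmerged files. Each value within a kind of file rests on 1 sample of a diet.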
